A study of Mus musculus with 6 samples.

Results

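Desmosomes are the spot-like junctions that hold keratinocytes together, and the 10 genes described here encode their membrane cadherins and plakoglobin. The members were taken by name from the count table, which holds 56941 genes, and all 10 were found: Dsg1a, Dsg1b, Dsg1c, Dsg2, Dsg3 and Dsg4 (desmogleins), Dsc1, Dsc2 and Dsc3 (desmocollins), and Jup (plakoglobin). All 10 passed edgeR's filter on low counts. The total RNA came from hair follicle stem cells (HFSCs) that were sorted by FACS as CD34+/α6-integrin+ from dorsal skin of female mice at postnatal day (PD) 68, which the study places in the second telogen, the resting phase of the hair cycle. Both genotypes carried floxed alleles of Dab2 (Dab2 fl/fl, strain B6;129S4-Dab2tm1Cpr/J) and received tamoxifen at 75 mg/kg on 5 consecutive days. The mice labelled WT lacked Cre, and those labelled Dab2-cKO carried K14CreER, a tamoxifen-dependent Cre recombinase under the K14 promoter, so a deletion is to be looked for in K14-expressing epithelial cells and not in other skin cells. Each genotype had 3 libraries, which the labels call biological replicates.

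In a desmosome, a desmoglein and a desmocollin reach across the gap between cells, and their tails bind plakoglobin and plakophilins, which in turn bind desmoplakin and, through it, the keratin filaments. The cadherins are known to be laid out by layer in skin. Dsg2, Dsg3, Dsc2 and Dsc3 are typical of basal or deep cells, Dsg1 and Dsc1 of suprabasal, differentiating cells, and Dsg4 of the hair shaft cortex and upper epidermis, where its loss gives fragile, sparse hair. Plakoglobin is a close relative of β-catenin and joins both desmosomes and adherens junctions.

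The total count per library lay between 7040032 and 11696457, and a gene without counts could still hold 2.56e-05% to 4.26e-05% of a library (3 counts, covering counting error only). The members took 0.258% to 0.266% of all counts in the libraries labelled WT and 0.149% to 0.158% in those labelled Dab2-cKO. Of all counts, the top 100 genes took 33.1% to 33.9% in the former and 44.5% to 46.6% in the latter, and mitochondrial genes took 12.99% to 14.45% and 19.1% to 20.3%. The part of this shift in the member results was not tested. Normalized counts here are counts after TMM scaling between libraries, and each log2 fold change is of Dab2-cKO over WT, with its standard error (SE). The targeted gene checks the labels. Dab2 had 338, 332 and 309 normalized counts for WT and 1434, 1300.2 and 1389.5 for Dab2-cKO. It was thus higher in the libraries labelled Dab2-cKO (log2 fold change 2.08, SE 0.080, adjusted p = 3.04e-34 by edgeR), and WT and Dab2-cKO below stand for libraries so labelled. The count covers the whole gene, and the floxed part was not counted by itself. The study itself reports less Dab2 mRNA in Dab2-cKO mice by qPCR of epidermis, and deletion of Dab2 in the follicle by staining. In these counts, an exchange of the genotype labels cannot be told apart from a true rise of Dab2. Nor can either be told apart from more RNA of other skin cells, where no deletion is to be looked for. An exchange of the labels would turn the direction of every difference between the genotypes given here. The sorting markers Cd34 and Itga6 were counted in all libraries (Cd34 at 510.4 ± 53.2 and 1779.5 ± 35.6, SD, n = 3 each), and the summed levels of markers for other cell types differed between the genotypes. Fibroblast markers (5 of 5 higher) summed to 99291 to 120308 normalized counts for WT and 347193 to 366909 for Dab2-cKO. The corresponding sums were 894 to 1077 and 3545 to 3591 for endothelial markers (5 of 5 higher), and 1363 to 1546 and 6266 to 6548 for immune markers (4 of 5 higher). Melanocyte markers (5 of 5 lower) summed to 2595 to 2819 and 732 to 779. No gene of these lists was at 0 in all libraries, which also held for 99.2% of 1521 olfactory, vomeronasal and trace amine receptor genes. The part of such cells in the member results and in the Dab2 counts was not tested. In bulk RNA, fewer cells of a type and less RNA per cell cannot be told apart.

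Of the 10 members, 6 fell in the libraries labelled Dab2-cKO and none rose (edgeR's adjusted p under 0.05; by unadjusted p under 0.05, 6 were lower and 0 higher, and DESeq2 called 6 lower and 0 higher). The hair-type cadherin Dsg4 showed the largest change among the members. The basal cadherins Dsg2 and Dsc2 fell to less than 0.5 of their WT level, Dsg3 and Dsc1 by less, and plakoglobin least. The remaining 4, Dsg1a, Dsg1b, Dsg1c and Dsc3, did not pass the test. Over all 32149 genes tested, 11.5% were called lower and 16.8% higher, 28.2% in either direction. The members are well-counted genes. In a fit of the 14801 genes with a mean count of at least 50, which holds all members, 27.4% were called lower and 30.1% higher, and 8 members were called lower and 0 higher. The members' median log2 fold change was -0.33, against -0.023 over all genes tested. In 7 of the 10 members the highest Dab2-cKO library was below the lowest WT library, which held for 17.7% of all genes, and in 0 members the reverse was seen, which held for 20.6%. These shares cover all 32149 genes tested and were not taken over well-counted genes alone, so they are not matched to the members. Scaling mattered for the weak changes. With library size only, the median of all genes moved to -0.45 and the split of calls over all genes from 5387 higher and 3682 lower to 2686 higher and 11168 lower, and all 10 members were then called lower. With upper-quartile scaling the split was 4281 higher and 5561 lower, and 8 members were called lower.

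**Figure D1:**
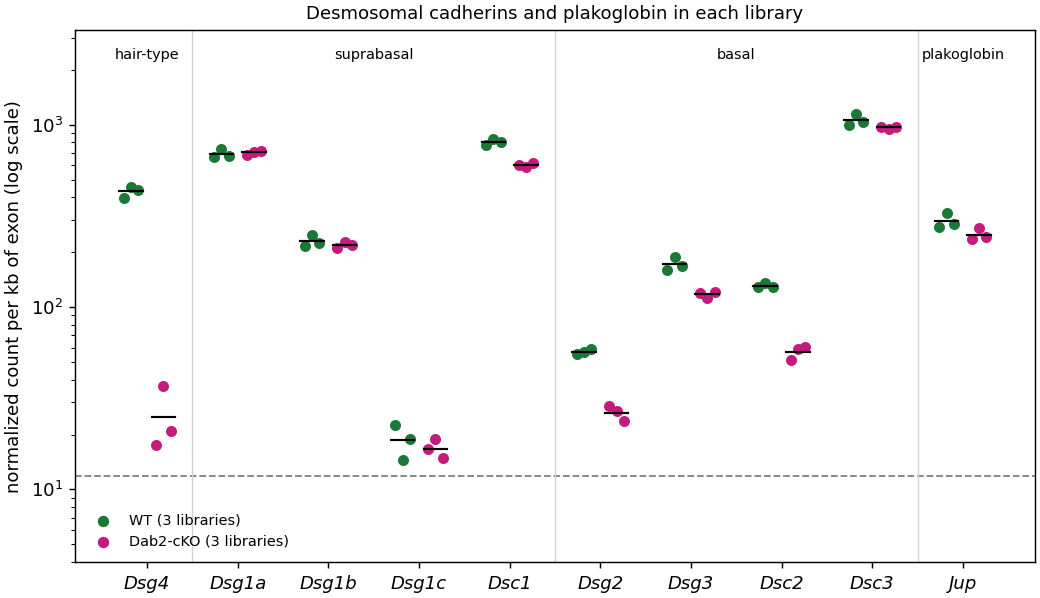
Normalized count per kb of exon (log scale) of each member in each library, grouped by the layer where the cadherin is typical; black bars are group means, n = 3 libraries each, and the dashed line is the 95th percentile of chemosensory receptor genes (11.8). Dsg4 in the libraries labelled Dab2-cKO lies between 17.5 and 36.7, far below its WT range, while Dsg1a and Dsg1b overlap between the genotypes.

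Dsg4 (ENSMUSG00000001804, GRCm39 chromosome 18, 20569232 to 20604878, plus strand) is the desmoglein of the keratinizing hair shaft. Its normalized counts, replicate by replicate, were 1379.5, 1593 and 1521 in WT and 61.0, 128 and 72.8 in Dab2-cKO. The highest Dab2-cKO library, replicate 2, stayed far below the lowest WT library. The mean fell from 1498 ± 109 to 87.2 ± 35.6 (SD, n = 3 each), a 17.2-fold difference of means. The fitted change was large (log2 fold change -4.12, SE 0.18, adjusted p = 8.21e-09 by edgeR), and it lay at percentile 0.36 of all genes tested, where 0 is the most negative. Leaving out single libraries gave values between -4.52 and -3.92. A background spread evenly over exons, taken from the median of 1521 olfactory, vomeronasal and trace amine receptor genes (4.94 normalized counts per kb), would give Dsg4 17.2 counts, less than in any library. Per kb, however, the Dab2-cKO libraries were at 17.5, 36.7 and 20.9 normalized counts, near the receptor genes' 95th percentile (11.8). The size of the Dsg4 fall is therefore limited by the background.

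The suprabasal desmoglein Dsg1 has several neighbouring copies in the mouse. Dsg1a (ENSMUSG00000069441, chromosome 18, 20443868 to 20476407) was the most abundant desmoglein, with 3774, 4166 and 3832 normalized counts for WT and 3897, 4036 and 4087 for Dab2-cKO. The genotypes overlapped, and the difference did not pass the test (log2 fold change 0.030, SE 0.069, adjusted p = 0.819 by edgeR). Dsg1b (ENSMUSG00000061928, 20509781 to 20543253) had 859.6, 982 and 891 and 836, 899 and 866 normalized counts in the same order, again with overlap (log2 fold change -0.073, SE 0.075, adjusted p = 0.561 by edgeR). Dsg1c (ENSMUSG00000034774, 20380397 to 20418088) was the rarest member, with 92.4, 59.6 and 76.9 normalized counts in WT and 67.7, 77.1 and 60.7 in Dab2-cKO. The 18.7 and 16.8 normalized counts per kb of Dsg1c were little above the receptor genes' 95th percentile (11.8), and their difference did not pass (log2 fold change -0.15, SE 0.21, adjusted p = 0.686 by edgeR).

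The copies are alike enough for reads to be lost or misplaced. Aligned over their longest GENCODE transcripts, Dsg1a and Dsg1b were identical at 96.95% of aligned bases, Dsg1b and Dsg1c at 95.07%, and Dsg1a and Dsg1c at 92.9%. Of all stretches of 100 bases in the annotated transcripts, 24.6% of those of Dsg1a, 32.8% of Dsg1b and 13.9% of Dsg1c also occur in another copy, and none of those of the other 7 members occurs in another gene. How the counting treated reads with several positions is not given in the sources used here, so the split among the copies is uncertain. A sum over the 3 copies does not depend on how reads were split among them, though it still depends on whether such reads were counted. It was 4726, 5208 and 4800.1 normalized counts for WT and 4801, 5012 and 5014 for Dab2-cKO, with overlap. Refitted with the summed copies, its log2 fold change of -0.021 had a 95% interval of -0.14 to 0.094 (adjusted p = 0.849 by edgeR). It passed the threshold, as a lower value, with upper-quartile scaling (-0.14) and with library size only (-0.42), and its sign changed with DESeq2 (0.0025). The means of 4912 and 4943 also run the other way, since the refit estimated its own TMM factors against another reference library (WT replicate 2 in place of Dab2-cKO replicate 2). With the factors behind the normalized counts, the value was 0.0089 (adjusted p = 0.951 by edgeR), so the sum has no settled direction.

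Dsc1, the desmocollin usually found with Dsg1 in suprabasal layers (ENSMUSG00000044322, chromosome 18, 20217241 to 20247928, minus strand), did fall. Its normalized counts were 3907, 4229 and 4068 in WT and 3043, 2962 and 3121 in Dab2-cKO. All Dab2-cKO libraries were below all WT libraries, and the spread within each genotype was small. The mean went from 4068 ± 161 to 3042 ± 79.8 (SD, n = 3 each; log2 fold change -0.42, SE 0.069, adjusted p = 5.02e-07 by edgeR).

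Among the basal cadherins, the fall was larger in Dsc2 and Dsg2, which had the lowest counts per kb of the 4. Dsc2 (ENSMUSG00000024331, chromosome 18, 20163675 to 20192717), a desmocollin of both epithelia and heart, had 699, 738 and 699.8 normalized counts in WT and 279, 319 and 330.0 in Dab2-cKO. The genotypes were well apart. Its mean fell from 712 ± 22.5 to 309 ± 26.6 (SD, n = 3 each; log2 fold change -1.21, SE 0.089, adjusted p = 3.18e-19 by edgeR). Dsg2 (ENSMUSG00000044393, 20691074 to 20737581), the most widely expressed desmoglein, had 529, 544 and 564 and 275, 258 and 226 normalized counts. Again no library overlapped with the other genotype, and the mean fell from 546 ± 17.6 to 253 ± 24.6 (SD, n = 3 each; log2 fold change -1.11, SE 0.098, adjusted p = 7.71e-16 by edgeR). An even background would give 47.4 counts on the long exons of Dsg2.

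Dsg3 (ENSMUSG00000056632, 20643331 to 20680516), the antigen of pemphigus vulgaris and a desmoglein of basal cells and of the follicle, had 1119, 1309 and 1172 normalized counts in WT and 832, 781 and 845 in Dab2-cKO. Its fall was moderate and without overlap, from 1200.1 ± 98.0 to 819.7 ± 33.9 (SD, n = 3 each; log2 fold change -0.55, SE 0.075, adjusted p = 4.29e-09 by edgeR). Dsc3 (ENSMUSG00000059898, 20093987 to 20135408), the main basal desmocollin, had the highest count of any member. It was counted at 5430.2, 6202 and 5594 in WT and 5291, 5163 and 5295 in Dab2-cKO. The libraries did not overlap, but the step between the nearest libraries of the genotypes was smaller than the spread among the WT libraries. The change did not pass the threshold (log2 fold change -0.13, SE 0.068, adjusted p = 0.169 by edgeR; 95% interval -0.26 to 0.0044). It passed, as a lower value, in 7 of 14 alternative settings, among them the fit without WT replicate 1 (-0.16, adjusted p = 0.0189 by edgeR).

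Plakoglobin, encoded by Jup (ENSMUSG00000001552, GRCm39 chromosome 11, 100259784 to 100291103, minus strand), had 2442, 2901 and 2552 normalized counts for WT and 2098, 2405 and 2155 for Dab2-cKO. The highest Dab2-cKO library nearly reached the lowest WT library. The mean of 2632 ± 239.5 for WT and 2219 ± 163 for Dab2-cKO (SD, n = 3 each) gave a small fall (log2 fold change -0.25, SE 0.072, adjusted p = 0.00532 by edgeR). It was lost without WT replicate 2 (log2 fold change -0.16, adjusted p = 0.0622 by edgeR). Desmoplakin, encoded by Dsp, the plaque protein to which plakoglobin binds, moved by nearly the same amount (log2 fold change -0.26). Of the 10 members, 1, Jup, matched the RefSeq promoter table used here. Its promoter is shown beside that of Dsp, which moved like it, as the 250 bases before the start of each gene in RefSeq, 5′ to 3′ on the gene's strand, at chr11:100397791-100398040 (minus strand) and chr13:38151044-38151293 (plus strand) of GRCm38.p6. Capitals mark CCAAT and GGGCGG on either strand.
Jup: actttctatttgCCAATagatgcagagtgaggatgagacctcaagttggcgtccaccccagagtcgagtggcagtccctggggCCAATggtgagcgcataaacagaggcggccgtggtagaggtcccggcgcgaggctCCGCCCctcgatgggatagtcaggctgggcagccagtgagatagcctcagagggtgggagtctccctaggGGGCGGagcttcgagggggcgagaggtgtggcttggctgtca
Dsp: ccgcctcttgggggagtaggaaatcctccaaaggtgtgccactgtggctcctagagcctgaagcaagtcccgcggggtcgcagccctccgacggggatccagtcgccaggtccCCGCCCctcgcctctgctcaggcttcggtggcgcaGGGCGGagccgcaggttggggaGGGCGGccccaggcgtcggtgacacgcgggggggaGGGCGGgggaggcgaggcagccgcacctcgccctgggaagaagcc
Both windows are rich in G and C (62.0% and 72.4%, against a median of 52.4% over 32851 promoter windows of the same length). GGGCGG occurred 2 times in the window of Jup and 4 times in that of Dsp, and was present in 32.7% of all windows. CCAAT occurred 2 times in the window of Jup and was present in 33.9% of all windows. Neither CTTTGAT, a core site of the TCF/LEF factors through which β-catenin acts (3.21% of all windows), nor AACCGGTT, the site of grainyhead-like factors (0.12%), nor TATAAA (12.4%) was found in either window on either strand.

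Per kb of exon, the members in the libraries labelled WT ranked from Dsc3 (1058 ± 75.0 normalized counts per kb, SD, n = 3) through Dsc1 (806), Dsg1a (690.2), Dsg4 (431), Jup (296), Dsg1b (229), Dsg3 (172), Dsc2 (131) and Dsg2 (56.9) to Dsg1c (18.7 ± 4.02, SD, n = 3). Exon length merges all annotated transcripts of a gene (29 for Jup and 1 for Dsg4), so this order depends on the annotation. No neighbours in it overlapped between their libraries. RNA from cells sorted with stem cell markers thus gave more counts per kb for the suprabasal Dsg1a and Dsc1 than for the basal Dsg3. This held in every library of both genotypes. Among the desmocollins, the basal Dsc3 exceeded the suprabasal Dsc1 in every library (means of 1058 and 806 for WT, 968 and 603 for Dab2-cKO). In the libraries labelled Dab2-cKO the order was Dsc3, Dsg1a, Dsc1, Jup, Dsg1b, Dsg3, Dsc2, Dsg2, Dsg4 and Dsg1c. Dsg4 dropped from the fourth to the ninth place, at 25.1 ± 10.2 normalized counts per kb (SD, n = 3), where it overlapped with both of its neighbours.

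The make-up of each family does not depend on the scaling between libraries. Of the summed counts per kb of all desmogleins, the copies of Dsg1 held 58.7% ± 0.804 of WT and 84.8% ± 0.364 of Dab2-cKO libraries (SD, n = 3 each). The share of Dsg4 was 26.2%, 27.0% and 27.7% in the WT libraries and 1.63%, 3.25% and 1.87% in the Dab2-cKO libraries. That of Dsg3 stayed at 10.8% ± 0.260 and 10.6% ± 0.617, with overlap (exact 2-sided permutation test over the libraries, p = 0.9). Dsg2 held 3.57% ± 0.197 and 2.38% ± 0.273. Among the desmocollins, Dsc3 was the largest part, with 53.0% ± 0.862 in WT and 59.5% ± 0.450 in Dab2-cKO, followed by Dsc1 (40.4% ± 0.743 and 37.0% ± 0.311) and Dsc2 (6.57% ± 0.171 and 3.50% ± 0.297). Each of these shares except that of Dsg3 separated the genotypes without overlap, at the smallest p that 3 against 3 libraries allow (exact 2-sided permutation test, p = 0.1). Shares within a family are tied, since a fall in 1 part raises the others, so they are not separate results. Per kb, summed Dsg1 was at 938.3 ± 49.4 and 939.9 ± 23.6 normalized counts (SD, n = 3 each), with overlap, whereas Dsg3 fell from 172.0 to 117.5.

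**Figure D2:**
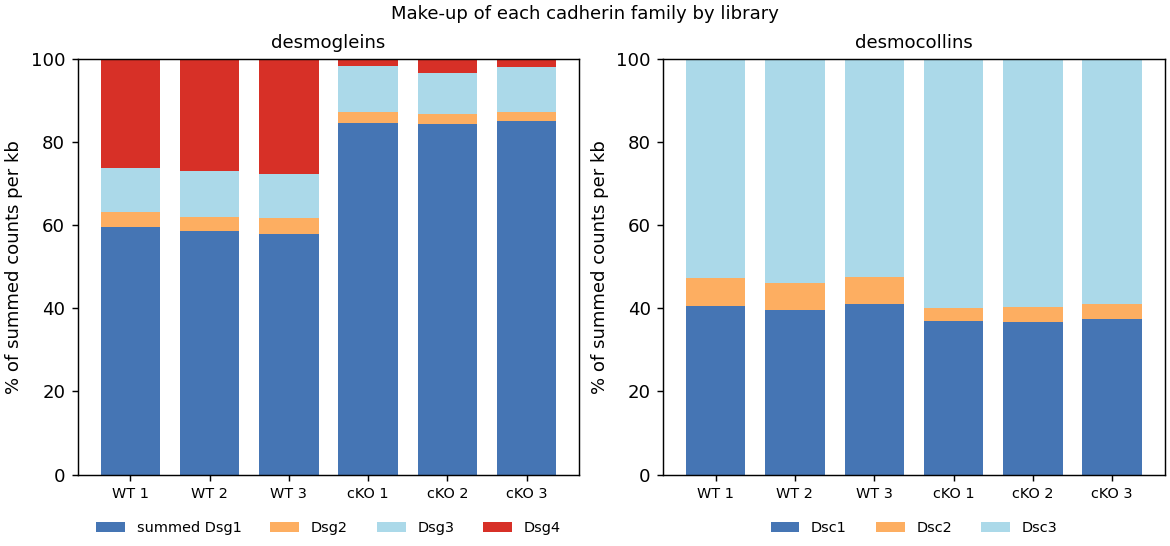
Share of each desmoglein (left) and desmocollin (right) in the summed counts per kb of its family, one bar per library, cKO standing for libraries labelled Dab2-cKO. Dsg4 takes 26.2% to 27.7% of the desmoglein sum in the libraries labelled WT and 1.63% to 3.25% in those labelled Dab2-cKO.

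Ratios between layers were compared within each library, as log2 ratios of counts per kb with a pseudocount of 0.5, over 7 ratios set up together. The hair-type over the basal desmoglein, Dsg4 over Dsg3, was 1.31, 1.29 and 1.38 in the libraries labelled WT and -2.75, -1.60 and -2.52 in those labelled Dab2-cKO, so Dsg4 exceeded Dsg3 per kb in every WT library and lay below it in every Dab2-cKO library. The difference was -3.62 (standard error 0.35) on the log2 scale. The suprabasal over the basal desmoglein, summed Dsg1 over Dsg3, moved the other way, from 2.49, 2.41 and 2.45 to 2.94, 3.09 and 2.97, a difference of 0.55 (standard error 0.053). The desmocollins did not follow this. Dsc1 over Dsc3 was -0.37, -0.45 and -0.36 in WT and -0.69, -0.70 and -0.66 in Dab2-cKO, so the suprabasal desmocollin went down against the basal one by 0.29 (standard error 0.031). Within the basal pairs, Dsg2 over Dsg3 changed by -0.56 (standard error 0.12) and Dsc2 over Dsc3 by -1.08 (standard error 0.084). All desmogleins over all desmocollins went from -0.33, -0.32 and -0.31 to -0.60, -0.50 and -0.57, a difference of -0.23 (standard error 0.029) that shrank to -0.13 without division by exon length. The desmoglein sum includes Dsg4, which fell from 430.7 to 25.1 normalized counts per kb, while summed Dsg1 was at 938.3 and 939.9. The ratio was not taken without Dsg4. Each of these 6 ratios separated the genotypes without overlap (exact 2-sided permutation test, p = 0.1, the smallest possible; adjusted over the 7 ratios, p = 0.117), so none could pass a threshold of 0.05. The ratio of Jup over Dsp was -3.71, -3.71 and -3.76 in WT and -3.78, -3.59 and -3.75 in Dab2-cKO, with overlap (difference 0.016 (standard error 0.063), exact 2-sided permutation test, p = 0.9).

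**Figure D3:**
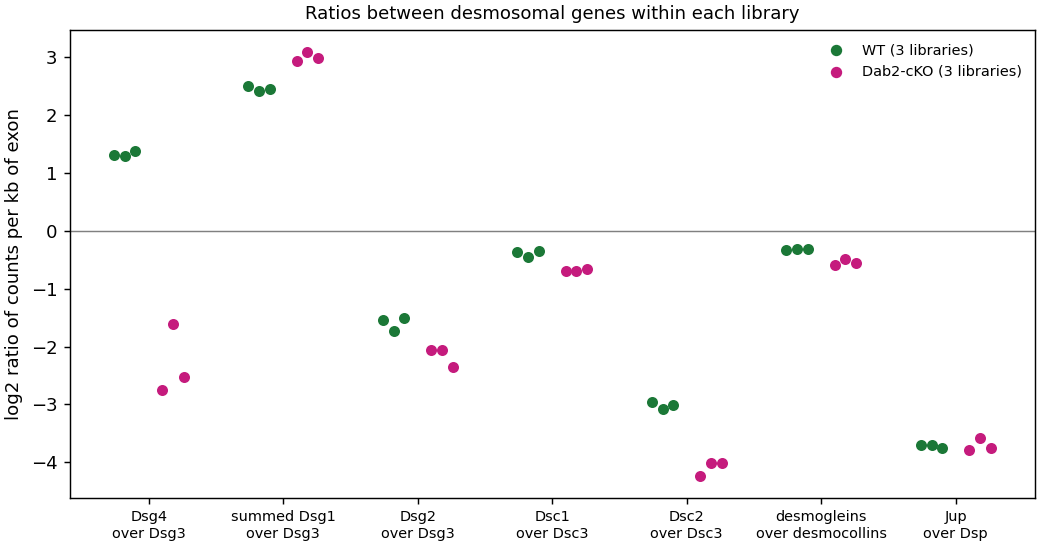
Log2 ratios of counts per kb of exon between desmosomal genes, one point per library, 3 libraries for each genotype. The 6 cadherin ratios separate the genotypes without overlap, with summed Dsg1 over Dsg3 the one that is higher in the libraries labelled Dab2-cKO, and Jup over Dsp overlaps.

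The other genes of the desmosome were described from a list of 9 plaque and accessory genes. Of these, 6 fell and none rose in the libraries labelled Dab2-cKO (edgeR's adjusted p under 0.05; by unadjusted p under 0.05, 6 were lower and 2 higher, and DESeq2 called 6 lower and 0 higher), with a median log2 fold change of -0.24. The plakophilins, armadillo proteins that cluster the cadherins, differed among themselves. Pkp3, found in most desmosomes of stratified epithelia, went from 1316, 1472 and 1418 normalized counts in WT to 614, 639.7 and 617 in Dab2-cKO (log2 fold change -1.17, SE 0.075, adjusted p = 2.54e-22 by edgeR). Pkp1, the plakophilin of suprabasal cells, fell little, from 3327 ± 232 to 2889 ± 120.5 (SD, n = 3 each; log2 fold change -0.20, SE 0.070, adjusted p = 0.0201 by edgeR). Pkp2, known mainly from heart and simple epithelia, was called lower (-0.70, adjusted p = 0.000986), but its 8.82 and 5.41 normalized counts per kb lay below the 95th percentile of the receptor genes. Pkp4 did not pass (-0.023, SE 0.085, adjusted p = 0.89).

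Dsp, the linker to keratin filaments, was by far the most abundant of these genes, with 34782, 41321 and 37683 normalized counts in WT and 31536, 31547 and 31714 in Dab2-cKO, which did not overlap (log2 fold change -0.26, SE 0.067, adjusted p = 0.00108 by edgeR). Perp, a membrane protein of desmosomes that is a target of p63, showed a similar small fall (log2 fold change -0.24, SE 0.068, adjusted p = 0.00368 by edgeR). The plakins of the cornified envelope parted. Evpl (envoplakin) fell from 3726 ± 397 to 2528 ± 62.7 (SD, n = 3 each; log2 fold change -0.56, SE 0.072, adjusted p = 7.77e-10 by edgeR), while Ppl (periplakin) was at 6111 ± 631 and 6800.2 ± 227 and did not pass (log2 fold change 0.15, SE 0.070, adjusted p = 0.0984 by edgeR). Cdsn, the corneodesmosin of the uppermost layers, was at 1363 ± 164 and 1535 ± 24.1 and did not pass either (log2 fold change 0.17, SE 0.073, adjusted p = 0.0766 by edgeR). Without WT replicate 2, 2 plaque genes were called higher, and without WT replicate 3, 5 were called lower.

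Adherens junctions, which use classical cadherins and join actin in place of keratin, had 8 of 9 listed genes lower and 1 higher, with a median log2 fold change of -0.61. P-cadherin (Cdh3), a cadherin of basal cells, hair germ and matrix, went from 906, 1054 and 956 normalized counts in WT to 289.9, 242 and 244 in Dab2-cKO (log2 fold change -1.91, SE 0.089, adjusted p = 1.02e-29 by edgeR), a larger fall than that of any member but Dsg4. E-cadherin (Cdh1) was at 2804 ± 313 and 1988 ± 14.1 (SD, n = 3 each; log2 fold change -0.50). β-catenin (Ctnnb1), the relative of plakoglobin, fell by 0.76 on the log2 scale, against 0.25 for Jup. The nectins Nectin1 and Nectin4 (both -1.29), afadin (Afdn, -0.61), α-catenin (Ctnna1, -0.37) and p120-catenin (Ctnnd1, -0.38) were also lower, but 37.6% of the exon bases of Ctnnd1 overlap another annotated gene on the same strand. Vinculin (Vcl) was called higher (0.22, edgeR's adjusted p = 0.0244), a call that DESeq2 and 8 other alternatives did not make.

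**Figure D4:**
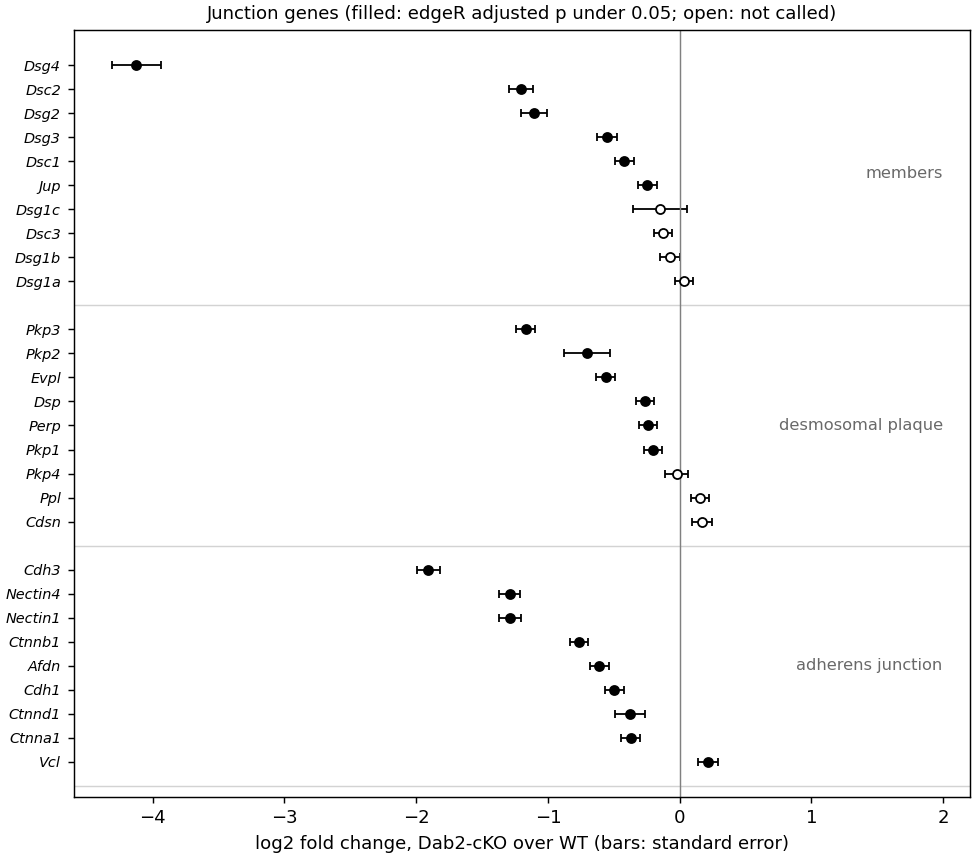
Log2 fold change of libraries labelled Dab2-cKO over WT with its standard error (edgeR, n = 3 each) for the members, the desmosomal plaque genes and the adherens junction genes; filled points have an adjusted p under 0.05. Dsg4 stands at -4.12, Dsc2, Dsg2 and Pkp3 between -1.21 and -1.11, and Dsg1a, Dsg1b, Dsg1c and Dsc3 near 0.

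Of 9 transcription factors known in hair or epidermal differentiation, 7 were lower and 2 higher in the libraries labelled Dab2-cKO. Hoxc13 and Foxn1, factors of hair shaft differentiation whose loss leaves mice without a normal coat, had the largest falls. Hoxc13 went from 531, 621 and 577 to 41.0, 28.8 and 33.1 normalized counts (log2 fold change -4.05), close in size to Dsg4. Foxn1 went from 478, 586 and 546 to 51.5, 75.9 and 64.0 (log2 fold change -3.08). In Dab2-cKO, Hoxc13 was at 13.9 and Foxn1 at 19.9 normalized counts per kb on average, near the receptor genes' 95th percentile (11.8). The size of both falls is therefore limited by the background. Grhl1, a grainyhead-like factor known to act on Dsg1 genes, fell by 1.08 on the log2 scale (edgeR's adjusted p = 1.22e-21), whereas the Dsg1 sum did not pass the test. Trp63, the master factor of stratified epithelia, was lower by 0.53, and Zfp750 (-0.97) and Ovol1 (-1.52) were lower too. Klf4 and Grhl3, both of barrier formation, were higher (0.96 and 0.69).

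The layer markers did not move with the cadherins of the same layer in every case. Hair shaft and inner root sheath markers, of which 15 of the 16 listed were in the table, were all lower in the libraries labelled Dab2-cKO. They summed to 252596 to 303378 normalized counts in WT and 2478 to 2527 in Dab2-cKO, a 111-fold difference of means beside 17.2-fold for Dsg4. In Dab2-cKO, Dsg4 (25.1 normalized counts per kb) and some of these markers lay near the receptor genes' 95th percentile (11.8), which limits their folds. Tchh (trichohyalin, 162270.3 normalized counts on average in WT and 1517.4 in Dab2-cKO) weighed most in the sum. Tchh and the root sheath keratin gene Krt71 were the most abundant of these markers in WT, although the labels call the cells HFSCs and the study places PD68 in the second telogen. None of the 15 was at 0 in all Dab2-cKO libraries. That says little, since 99.2% of the 1521 receptor genes also had counts in some library. Suprabasal epidermal markers had 10 of 12 genes higher, Krt77, Krt10 and Flg2 among them, and the other 2 lower (Ivl -0.96 and Casp14 -0.39, log2 fold change). They summed to 28836 to 33579 in WT and 106064 to 107401 in Dab2-cKO, while summed Dsg1 overlapped and Dsc1 was lower. Basal keratinocyte markers had 4 of 6 genes higher, Krt5 and Krt14 among them, and the other 2 lower (Itga3 -0.69 and Trp63 -0.53). They summed to 17808 to 20194 and 29375 to 30241, while 3 of the 4 basal cadherins fell. Bulge markers had 5 of 8 higher and 3 lower (Sox9 -1.45, Lhx2 -1.43 and Lgr5 -1.32), with sums of 6745 to 7644 and 10882 to 11159.9 in which Krt15 weighed most. The lower genes of these 3 lists were named after their values were seen. Companion layer markers had 4 of 5 lower (9433 to 11195 and 2614 to 2715) and infundibulum and sebaceous gland markers had 6 of 6 higher (8787 to 10127 and 27258 to 28064). The part of these cell types in the changes of the members was not tested.

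**Figure D5:**
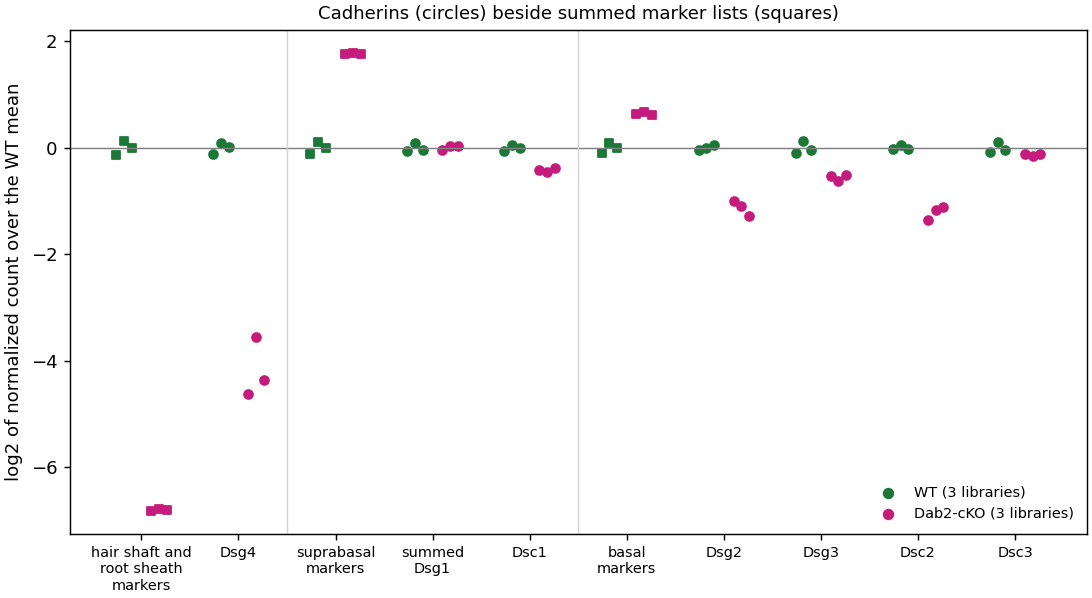
Log2 of the normalized count over the WT mean in each library, for cadherins (circles) and for the summed markers of their layer (squares), 3 libraries for each genotype. Hair shaft and root sheath markers and Dsg4 are both lower in the libraries labelled Dab2-cKO, whereas suprabasal markers are higher there and summed Dsg1 overlaps.

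The 9 cadherin genes lie together on chromosome 18, within 643.6 kb from 20093987 to 20737581 of GRCm39, the desmocollins on the minus strand and the desmogleins on the plus strand. Along the chromosome the log2 fold changes were -0.13 (Dsc3), -1.21 (Dsc2), -0.42 (Dsc1), -0.15 (Dsg1c), 0.030 (Dsg1a), -0.073 (Dsg1b), -4.12 (Dsg4), -0.55 (Dsg3) and -1.11 (Dsg2). Dsg4 thus sits between Dsg1b, which did not pass the test, and Dsg3, whose fall was moderate, and the low-level Dsc2 lies between the abundant Dsc3 and Dsc1. Next to the cluster, Ttr (transthyretin) was at 20.8 ± 5.70 and 21.7 ± 8.46 normalized counts (SD, n = 3 each), and B4galt6 (a galactosyltransferase) at 189 ± 14.7 and 166 ± 8.22, and neither passed the test (edgeR's adjusted p = 0.927 and 0.308). The processed pseudogene Gm10269 was called higher, from 111 ± 15.5 to 191 ± 26.3 (SD, n = 3 each; log2 fold change 0.77, edgeR's adjusted p = 1.15e-05). Gm5688, which lies within the cluster between Dsg4 and Dsg3, and Gm16090, which overlaps the end of Dsg2, did not pass. Annotated lncRNAs on the opposite strand overlap 1.53% to 7.33% of the exon bases of Dsg1a, Dsg1b, Dsg1c, Dsg2 and Dsg3, and the strand setting needed to assign those reads was not given in the sources used here.

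The genes nearest to a member in pattern were taken by the Euclidean distance between centred log2 normalized counts over the 6 libraries, among 10846 tested genes whose mean normalized count reached 100. For Dsg4 they were Msx2, a homeobox gene of the hair matrix (distance 0.30, log2 fold change -4.22), Gm11571 (0.37, -4.27) and the hair keratin gene Krt39 (0.58, -3.89). For Dsc1 the nearest were the tight junction gene Tjp1 (0.016), Hnrnpd (0.024) and Fgd6 (0.042), for Dsg3 Top2b (0.054), Aplp2 (0.079) and Utp14a (0.082), and for Jup Dmbt1 (0.050), Uspl1 (0.093) and Ylpm1 (0.093). With only 2 genotypes, such a distance mainly reflects the difference between them.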

How the data were processed

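The authors prepared SMARTer Stranded Total RNA libraries from sorted HFSCs, sequenced them as 150 bp pairs, and, per the labels' processing notes, used fastp 0.23.4, HISAT2 2.2.1 on GRCm39, SAMtools 1.6 and featureCounts 2.0.6. The deposited counts per gene are not normalized; strand setting, multi-mapping and annotation release are not given in the sources used here. The authors' DESeq2 1.42.0 table (their fold changes, p-values and scaled counts) was not used. Count columns named FL-FL were assigned to Dab2-cKO by a figure heading of the study, although both genotypes are floxed.

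Counts were filtered (filterByExpr defaults), scaled by TMM and compared across all genes by edgeR 4.0.16's quasi-likelihood test (R 4.3.3) with Benjamini-Hochberg adjustment, calling adjusted p under 0.05; standard errors are the fold change over the root of F. The script was tested on simulated data. Normalized counts are counts over effective library size times its mean. Exon lengths, coordinates and overlaps come from GENCODE M39, which holds 56323 of the 56941 gene IDs. Single values were compared by exact permutation tests in SciPy 1.17.1. p-values reflect the spread between 3 libraries a genotype; replicate pairs differed beyond sampling noise (chi-square per degree of freedom 4.81 to 21.5). Named genes were all members, all plaque genes, Dab2, Cdh1, Cdh3, Ctnnb1, called adherens junction and regulator genes, at most 3 abundant markers a list, genes within 100 kb of the cadherin cluster, and the 3 nearest genes in pattern of Dsg4, Dsc1, Dsg3 and Jup. The value of 1 called regulator gene is not reported here. Members and lists were chosen with earlier results of these data known. Alternatives were DESeq2, upper-quartile scaling, library size only, TMM without mitochondrial and the 100 most abundant genes, omitting the filter, keeping genes whose mean count reached 50, blocking on the replicate number, leaving out each library and, added after seeing the data, another TMM reference library and, for summed Dsg1, the factors of the fit with separate copies.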

Additional observations from a re-analysis of the deposited data

How the results depend on the processing

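Dsg4, Dsc2, Dsg2, Dsg3 and Dsc1 were called lower under all 14 alternatives, and Jup under 13. With upper-quartile scaling, Dsg1b (-0.22), Dsc3 (-0.27) and summed Dsg1 (-0.14) also passed as lower, and Dsg1a was at -0.11. With library size only, Dsg1a (-0.40), Dsg1b (-0.50), Dsg1c (-0.58), Dsc3 (-0.56) and summed Dsg1 (-0.42) passed as lower. That setting called 10 members lower, and over all genes 2686 higher and 11168 lower; upper-quartile scaling called 5561 lower. Dsc3 also passed with TMM lacking mitochondrial and abundant genes (-0.16) and with no low-count filter (-0.16), and in genes whose mean count reached 50 it (-0.22) and Dsg1b (-0.16) passed. Dsg1a was -0.0026 with no filter and -0.056 in genes whose mean count reached 50, and summed Dsg1 was 0.0025 with DESeq2. Of 2 alternatives chosen after seeing the data, TMM with WT replicate 2 as the reference library shifted the median of all genes to -0.054, put Dsg1a at -0.0005 and called Dsc3 lower (-0.16), and the TMM factors of the fit with separate copies gave 0.0089 for summed Dsg1. Vcl, 1 adherens junction gene called higher, gave 0 such genes with DESeq2, upper-quartile scaling, library size only, no filter, and the limit of 50 on the mean count. With each library left out, log2 fold changes ranged from -0.0048 to 0.084 for Dsg1a, -0.29 to 0.007 for Dsg1c, -0.16 to -0.061 for Dsc3, -0.33 to -0.16 for Jup and -0.027 to 0.062 for summed Dsg1; plaque genes called higher ranged from 0 to 2 and adherens junction genes from 0 to 1. The difference of desmogleins over desmocollins was -0.13 without exon length. Levels scaled by library size only moved in 18 of 20 cases by more than 1 SD. The cause of these changes was not tested, except that library size only shifts the median of all genes to -0.45. The replicate numbers did not pair the libraries (correlations of same-numbered deviations 0.070, -0.016 and 0.058); with a replicate block 5347 genes were higher and 3620 lower, 6 members were called lower, and no call on a member changed.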
